A study of Mus musculus with 24 samples.

Results

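Described here are 9 genes linked to monocytes and monocyte-derived cells, across macrophages sorted from mouse dura mater and diaphragm. The genes are Ccr2, Ly6c2, Plac8, Fn1, S100a4, Vcan, Treml4, Nr4a1 and Plbd1. They were chosen by name from the 41388 genes of the count table, and all 9 passed the filter on low counts in every comparison. The animals were wild type C57BL/6 mice of 17 weeks in steady state per the labels, although the series design speaks of RAG-1 deficient mice given T cells. The dura mater is the outer membrane around the brain, and the diaphragm is the muscle sheet below the lungs. The labels divide the macrophages of either tissue into C1, C2 and C3, but a column of the table can be tied to its tissue alone. Dural columns also carry 1 of 3 numbers (1, 3 and 4) together with P4, P5 or P6, here called a mark. The sources used here do not give the meaning of the marks or the markers used in the sort, and no column was tied to a subset.

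As background, classical monocytes leave the bone marrow through the chemokine receptor CCR2, carry much LY6C on their surface, and give rise to macrophages that replace or join those seeded before birth. Nonclassical monocytes patrol blood vessels, depend on the nuclear receptor NR4A1 and carry TREML4. Macrophages at the borders of the brain include cells with high MHC class II and CCR2, which are renewed from blood, and cells with LYVE1, FOLR2 and TIMD4, which mostly renew themselves.

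After repeat runs were summed, 9 dural libraries (3 of each mark, with 10457920 to 24077834 counts) and 7 diaphragm libraries (11053351 to 30132295 counts) were analysed. Levels are given as CPM, the reads of a gene among 1000000 counted reads of its library after TMM scaling. The labelled cell type was checked with 8 macrophage markers, whose summed level was 18842 to 22711 CPM in dura and 15843 to 24692 CPM in diaphragm. RNA of other cells was also present: the summed level of 6 fibroblast markers was 2015 to 3659 CPM in the libraries marked P4, 564 to 755 in P5 and 238 to 379 in P6. In diaphragm it was 15293 CPM in library 1 and 7365 in library 7, against 276 to 797 CPM in the other 5 libraries. The macrophage markers of diaphragm library 1 summed to 16757 CPM. A list of 5 skeletal muscle markers summed to 119 to 273 CPM in diaphragm and to at most 1.91 CPM in dura. Neutrophil-specific Ly6g had a level of 0 in every library but 3P6. The 7 listed neutrophil markers summed to 61.9 to 113 CPM in dura and 35.4 to 78.6 in diaphragm. Csf3r alone had 59.8 to 88.3 CPM in dura and 32.8 to 64.8 in diaphragm. Mpo reached 45 CPM in 3P4, Cxcr2 13.8 in diaphragm library 8 and S100a9 10.4 in 3P6. A list of 5 T and NK cell markers summed to at most 4.02 CPM in any library. In bulk samples such as these, fewer cells of a type and less RNA per cell cannot be told apart. The labels do not say that libraries came from separate animals, so p-values measure only the spread between libraries, which may be technical. In the tissue comparison, which has no term for the mark, this spread includes the differences between marks and between diaphragm libraries. A tissue difference that did not pass is thus no evidence of equal levels. A batch that differed between tissues and the tissue itself cannot be told apart.

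Upstream sequence is shown for 4 of the genes: Plbd1 and S100a4, which were higher in P6 than in P5 together with Ccr2, and Plac8 and Treml4, which separated the tissues. RefSeq promoter sequence (GRCm38.p6) was matched for 8 of the 9 genes, all but Fn1. Each stretch is read 5′ to 3′ on the gene's strand and leaves out bases that GENCODE places in an exon; capitals mark a PU.1 core, GAGGAA on either strand.
Plbd1, chr6:136661929-136662143, minus strand: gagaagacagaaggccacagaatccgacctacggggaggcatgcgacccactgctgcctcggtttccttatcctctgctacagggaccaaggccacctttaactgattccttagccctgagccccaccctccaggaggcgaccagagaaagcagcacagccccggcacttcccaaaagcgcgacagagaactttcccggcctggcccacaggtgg
S100a4, chr3:90603520-90603769, plus strand: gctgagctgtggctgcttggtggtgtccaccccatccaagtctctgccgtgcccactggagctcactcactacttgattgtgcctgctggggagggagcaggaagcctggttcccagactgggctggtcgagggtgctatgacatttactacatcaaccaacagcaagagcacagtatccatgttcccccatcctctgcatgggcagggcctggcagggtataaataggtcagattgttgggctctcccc
Plac8, chr5:100572246-100572455, minus strand: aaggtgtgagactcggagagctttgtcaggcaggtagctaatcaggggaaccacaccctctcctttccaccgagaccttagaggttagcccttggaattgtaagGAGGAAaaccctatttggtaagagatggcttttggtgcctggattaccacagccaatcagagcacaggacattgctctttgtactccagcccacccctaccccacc
Treml4, chr17:48264045-48264294, plus strand: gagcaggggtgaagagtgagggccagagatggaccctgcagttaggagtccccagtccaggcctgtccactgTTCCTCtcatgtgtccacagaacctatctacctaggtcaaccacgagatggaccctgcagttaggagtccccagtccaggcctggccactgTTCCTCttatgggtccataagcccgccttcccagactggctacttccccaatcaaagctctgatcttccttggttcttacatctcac

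PU.1 is a factor of the myeloid lineage, and its core was present in 23.4% of 32536 upstream windows of 250 bases in the RefSeq table. Over the whole 250 bases before the RefSeq start site, Treml4 and Plac8 each held 2 cores and Ly6c2 held 1. Before a second start site Ly6c2 held 2 cores and Plac8 none. The GC box bound by KLF and Sp1 factors, GGGCGG on either strand, was in 33% of windows, with 2 copies at Vcan and 3 at Nr4a1. The AP-1 site TGANTCA (in 6.73% of windows), the NGFI-B response element AAAGGTCA (1.35%), which NR4A factors bind, and the CRE TGACGTCA (1.56%) were also searched on both strands. These 3 motifs had no match in the windows of the 8 genes, and the windows of Ccr2, S100a4 and Plbd1 held none of the 5 motifs. Of the 250 bases of the Ccr2 window, 17 lie upstream of the first base that GENCODE places in an exon. In the window before the second Plac8 start site, 0 bases do. None of the matches found overlapped another, and a match is a description of letters, not of binding.

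Ccr2 (ENSMUSG00000049103, GRCm38 chromosome 9, 124101950 to 124113557, plus strand) encodes the receptor through which monocytes follow CCL2 and related chemokines. Its level in the P4 libraries was 104, 47.9 and 33.3 CPM (numbers 1, 3 and 4). The P5 libraries had 278, 275 and 248 CPM, and the P6 libraries 1642, 1460 and 1513 CPM. All 3 marks were separated with no overlap, and the P6 libraries were high together.

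In the fit of the 9 dural libraries, Ccr2 was higher in P5 than in P4 by 2.13 ± 0.30 on the log2 scale (standard error; adjusted p = 0.00114), a 4.38-fold difference. It was higher in P6 than in P5 by a further 2.53 ± 0.30 (adjusted p = 0.000127). Between P6 and P4 the difference was 4.66 ± 0.33, or 25.3-fold (adjusted p = 9.45e-07). These 3 comparisons share libraries. Library 1P4 was the highest of the P4 libraries, and without it the difference between P6 and P4 was 5.25 and that between P5 and P4 was 2.72.

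In diaphragm, Ccr2 stood at 19.7 CPM in library 1 and 23.7 in library 7, at 129 in each of libraries 2 and 8, and at 807, 1045 and 1035 in libraries 3, 6 and 9. Libraries 1 and 7 were thus lower than any dural library, while 3, 6 and 9 lay between the P5 and the P6 libraries. From high to low, the order was P6, diaphragm 3, 6 and 9, P5, diaphragm 2 and 8, P4, and diaphragm 1 and 7, and no neighbours in this order overlapped. The diaphragm numbers are not tied to subsets, so their values are given per library with no test. Over all libraries dura had 622 ± 695 CPM (SD, n = 9) and diaphragm 455 ± 482 (n = 7). The difference of 0.45 ± 0.93 did not pass the test (edgeR adjusted p = 0.761). The sign of this difference depended on which libraries entered: it was -1.45 without the P6 libraries and -0.02 without diaphragm libraries 1 and 7.

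**Figure D1:**
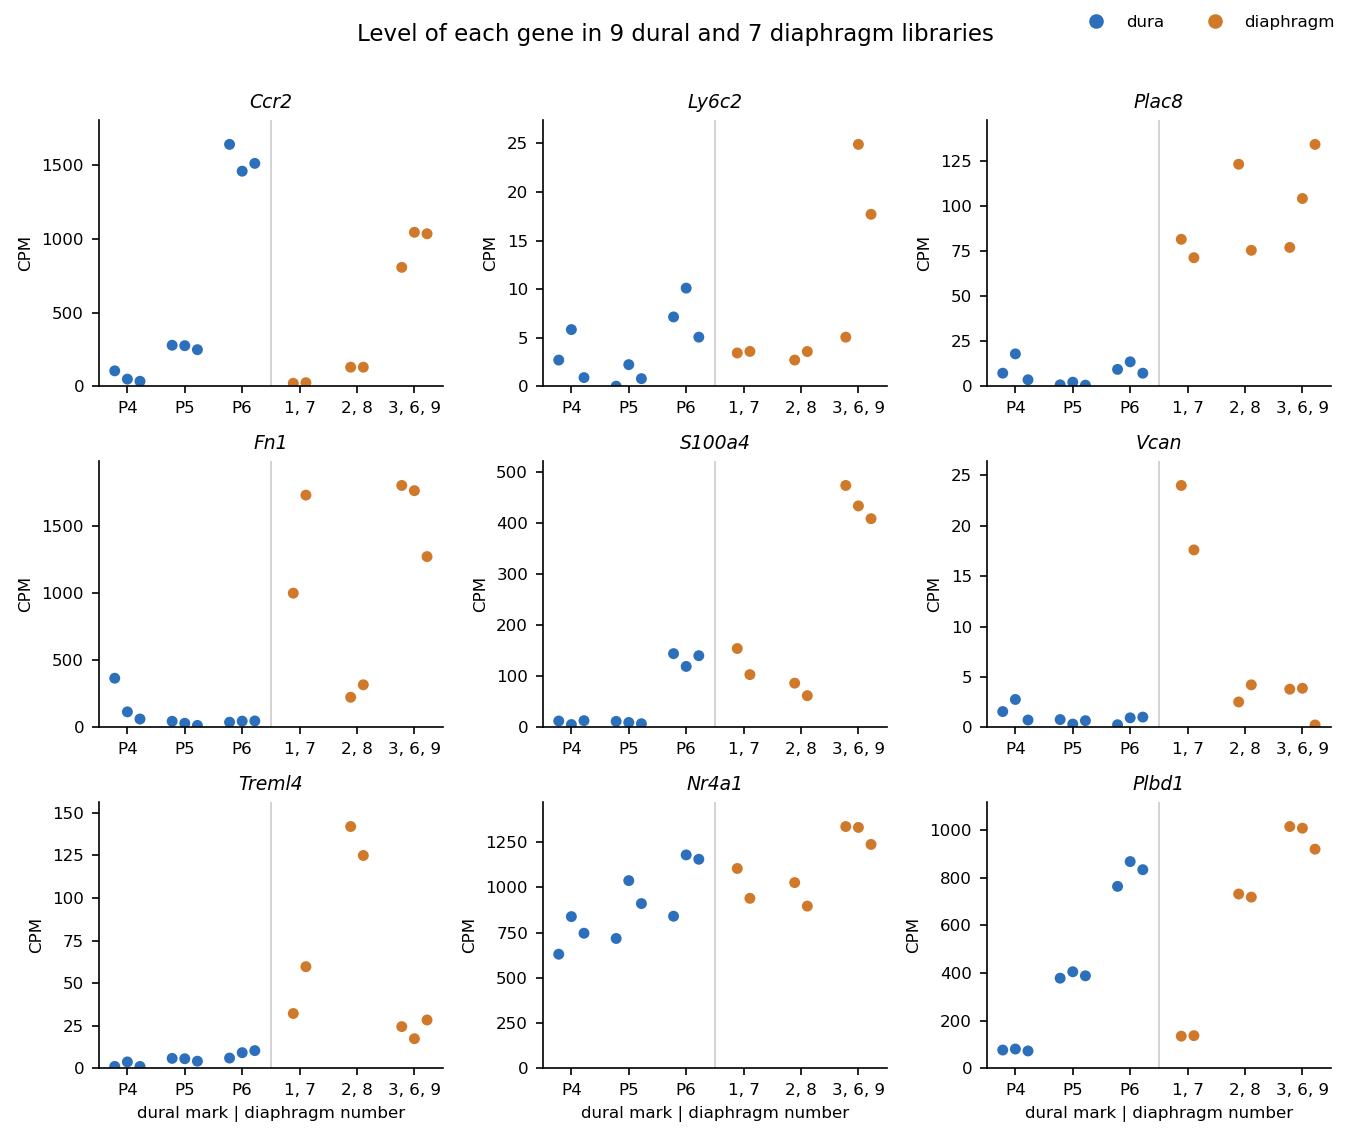
CPM (vertical axes, linear, from 0) of the 9 genes in each library, with dural libraries in blue by mark and diaphragm libraries in orange by number; each point is 1 library. Ccr2 and Plbd1 step up from P4 to P5 to P6, S100a4 is at 119 to 144 CPM in P6 alone among the dural marks, and Plac8 and Treml4 are higher in every diaphragm library than in any dural library.

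Plbd1 (ENSMUSG00000030214, chromosome 6, 136612070 to 136661928, minus strand), which encodes a phospholipase-like protein of myeloid cells, had the smallest standard errors of the 9 genes between dural marks. Its level was 76.7, 81 and 72.9 CPM in the P4 libraries, 378, 405 and 388 in P5, and 763, 867 and 833 in P6. No marks overlapped. The log2 difference was 2.35 ± 0.09 between P5 and P4 (adjusted p = 1.33e-08), 1.08 ± 0.08 between P6 and P5 (adjusted p = 3.96e-06) and 3.42 ± 0.09 between P6 and P4 (adjusted p = 1.91e-10). In diaphragm the level was 135 and 137 CPM in libraries 1 and 7, 731 and 718 in 2 and 8, and 1014, 1007 and 919 in 3, 6 and 9. As with Ccr2, libraries 1 and 7 were the lowest and 3, 6 and 9 the highest of their tissue, but for Plbd1 libraries 2 and 8 came close to the upper ones. The tissue difference of -0.63 ± 0.58 did not pass the test (adjusted p = 0.453).

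S100a4 (ENSMUSG00000001020, chromosome 3, 90603771 to 90606045, plus strand) encodes a calcium-binding protein of motile cells. Of its 584 exon bases, 302 are shared with the gene model Gm42674 on the same strand, which was not among the genes counted. Its level was 12.2, 5.27 and 12.9 CPM in the P4 libraries and 11.5, 9.36 and 6.94 in P5, which overlapped (log2 difference -0.14 ± 0.28, adjusted p = 0.86). In P6 it was 144, 119 and 140 CPM, above every other dural library by more than the spread within any mark. The difference was 3.88 ± 0.28 between P6 and P5, or 14.7-fold (adjusted p = 2.83e-06), and 3.74 ± 0.28 between P6 and P4 (adjusted p = 1.31e-06).

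All 7 diaphragm libraries carried S100a4, with 154 and 103 CPM in libraries 1 and 7, 86.3 and 61.8 in 2 and 8, and 473, 433 and 408 in 3, 6 and 9. Here libraries 3, 6 and 9 were again the highest, but libraries 1 and 7, the lowest for Ccr2, were above 2 and 8. Dura was lower than diaphragm (-2.26 ± 0.78 on the log2 scale, adjusted p = 0.0407), with the P6 libraries inside the diaphragm range. This call was lost when any 1 of the P4 or P5 libraries or of diaphragm libraries 3, 6 and 9 was left out (adjusted p from 0.0582 to 0.0858). It was also lost with dural libraries summed per number (adjusted p = 0.0644) and without the P4 (0.138) or the P5 libraries (0.16), and without the P6 libraries the difference was -4.65.

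Among 5 relatives of S100a4, S100a6, S100a10 and S100a11 rose from P5 to P6 and none fell. Of all tested genes, 8.38% were called higher and 8.98% lower in this step. S100a6, a calcium-binding relative encoded nearby, had 63.9 to 92.6 CPM in P6 against 8.57 to 13.1 in P5 (2.86 ± 0.21, adjusted p = 3.32e-06). S100a10, the partner of annexin A2, rose by 1.53 ± 0.15 (adjusted p = 2.26e-05). The neutrophil genes S100a8 and S100a9 did not pass the test, and neither was above 10.4 CPM in any library. The median difference of the 5 relatives was 1.53, against 0.00 over all genes tested.

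Ly6c2 (ENSMUSG00000022584, chromosome 15, 75108158 to 75111970, minus strand) encodes LY6C2, the surface protein that marks classical monocytes, and was low throughout. Its reads are uncertain, since its copy Ly6c1 is nearly identical. The level was 2.69, 5.83 and 0.887 CPM in P4, then 0, 2.22 and 0.775 in P5, and 7.13, 10.1 and 5.05 in P6. The 0 in library 1P5 allows up to 0.258 CPM (3 counts in that library, for counting error only). P6 was higher than P5 by 2.90 ± 0.89 with no overlap (adjusted p = 0.0432). The call is marginal: DESeq2 gave an adjusted p of 0.065, voom 0.0506, and leaving out 1P4, 1P5, 4P5 or any 1 of the P6 libraries gave 0.0507 to 0.144. P6 and P4 overlapped (1.25 ± 0.82, adjusted p = 0.275), as did P5 and P4 (-1.65 ± 0.88, adjusted p = 0.349).

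Diaphragm libraries 6 and 9 had the highest Ly6c2, at 24.9 and 17.7 CPM, whereas library 3 had 5.05 and libraries 1, 7, 2 and 8 had 2.69 to 3.58. The tissues did not pass the test (-1.17 ± 0.73, adjusted p = 0.257). Ly6c1, the copy that endothelial cells express most, was lower in P6 than in P5 (adjusted p = 0.0382), where Ly6c2 was higher, with 1.31 to 6.44 CPM in P5 and 0.503 to 1.17 in P6. Over the 5 LY6 relatives listed, 4 were tested, of which none was higher and 2 (Ly6c1 and Ly6e) were lower in P6 than in P4, where 16% and 17.3% of all tested genes were called higher and lower.

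Plac8 (ENSMUSG00000029322, chromosome 5, 100553725 to 100572245, minus strand), a cysteine-rich protein abundant in monocytes and granulocytes, followed another pattern. The P4 libraries had 7.21, 17.9 and 3.55 CPM, the P5 libraries 0.762, 2.22 and 0.571, and the P6 libraries 9.31, 13.5 and 7.2. P5 was lowest, with no overlap with P4 or P6. P5 was below P4 (-3.06 ± 0.63, adjusted p = 0.0119), and P6 above P5 (3.13 ± 0.64, adjusted p = 0.00525). P6 and P4 overlapped (0.07 ± 0.55, adjusted p = 0.935). The call between P5 and P4 was lost with voom (adjusted p = 0.0837) and without 3P4, 1P5 or 4P5 (adjusted p from 0.0556 to 0.0584); without 3P4 the difference was -2.20, and without 3P5 it was -3.85. Between P6 and P5 the difference without 3P5 was 3.92. Library 3P4, the highest for Plac8, also had 45 CPM of the granulocyte precursor gene Mpo, against at most 0.869 CPM in the other 15 libraries, and the part of such cells in the value was not tested.

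Every diaphragm library had more Plac8 than any dural library, from 71.2 through a median of 81.4 to 134 CPM, against 0.571, 7.2 and 17.9 in dura. The difference of -3.78 ± 0.55 is a 13.7-fold lower level in dura (adjusted p = 9.11e-05). Unlike Ccr2, Plac8 did not set libraries 1 and 7 (81.4 and 71.2 CPM) apart from 3, 6 and 9 (76.9, 104 and 134).

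Fn1 (ENSMUSG00000026193, chromosome 1, 71585520 to 71653200, minus strand) encodes fibronectin, a matrix protein made by monocyte-derived macrophages and by fibroblasts. It shares 292 of 11685 exon bases with Apol7d on the other strand, which had a level of 0. The P4 libraries had 366, 115 and 61.7 CPM, the P5 libraries 44.6, 29.9 and 13.7, and the P6 libraries 37.9, 45.5 and 47.1. P4 lay above both other marks, and P5 and P6 overlapped (0.59 ± 0.55, adjusted p = 0.532). Fn1 was lower in P5 than in P4 (-2.63 ± 0.56, adjusted p = 0.0143) and lower in P6 than in P4 (-2.04 ± 0.55, adjusted p = 0.0128). Without library 1P4, these differences were -1.60 (adjusted p = 0.0374) and -1.01 (adjusted p = 0.0686), and leaving out 3P5 or 4P5 gave an adjusted p of 0.0613 or 0.0566 for the first.

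All 6 fibroblast markers also fell from P4 to P5 and from P4 to P6 (4.26% and 17.3% of all tested genes). Col1a1, for example, was at 784 to 1332 CPM in P4, 200 to 271 in P5 and 86.2 to 138 in P6. Library 1P4, with the most Fn1, had 2823 CPM of summed fibroblast markers against 3659 in library 3P4. The part of fibroblast RNA in the Fn1 differences was not tested.

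In diaphragm Fn1 was 1001 and 1733 CPM in libraries 1 and 7, 224 and 317 in 2 and 8, and 1805, 1766 and 1274 in 3, 6 and 9. Dura was 13.7-fold lower (-3.78 ± 0.65, adjusted p = 0.000421), although library 1P4 was above diaphragm libraries 2 and 8; without it the difference was -4.56, and without the P4 libraries -5.00. Libraries 3, 6 and 9 combined 276 to 711 CPM of fibroblast markers with at least 1274 CPM of Fn1, whereas libraries 2 and 8, with 494 and 797 CPM of those markers, had the least Fn1 of the tissue. Dura had less RNA of 3 of 5 fibronectin receptor genes and more of none, where 15.3% and 11.2% of all tested genes were called lower and higher; the integrin chain Itga5 was lower (-2.37 ± 0.30, adjusted p = 2.4e-05). In dura, 4 of the 5 rose from P4 to P6 (16% of all tested genes), among them Itga5 (1.33 ± 0.21, adjusted p = 0.000478), while Fn1 fell.

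**Figure D2:**
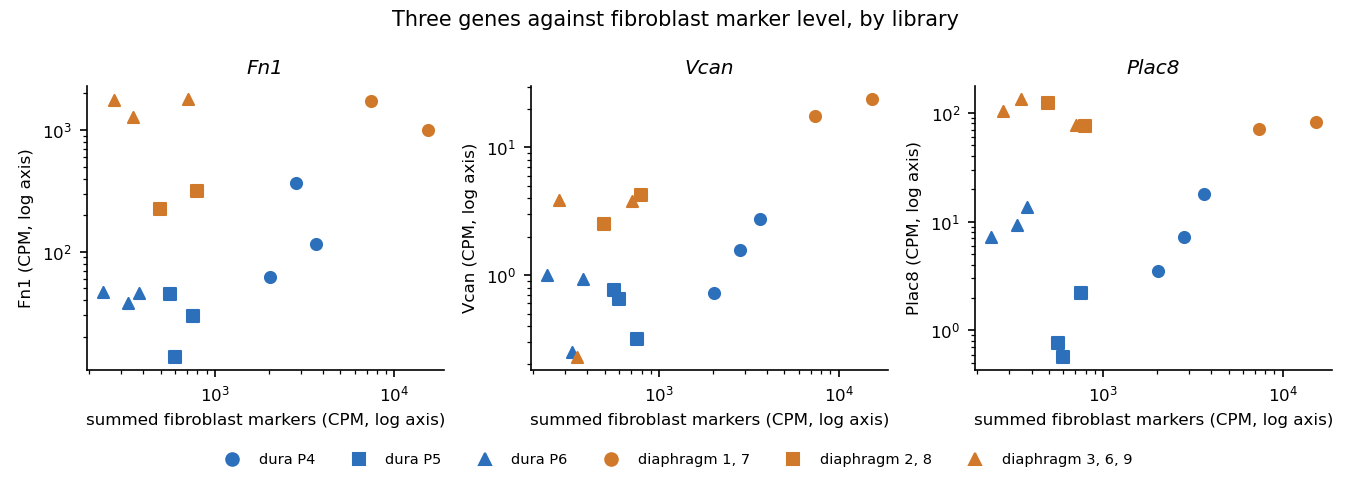
CPM of Fn1, Vcan and Plac8 (vertical log axes) against the summed CPM of 6 fibroblast markers (horizontal log axis), 1 point per library, blue for dura and orange for diaphragm, with shapes for marks and number sets. Vcan is highest in diaphragm libraries 1 and 7, at 24 and 17.6 CPM, which also have the most fibroblast marker RNA, while Fn1 is high in diaphragm libraries at both ends of the horizontal axis.

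Vcan (ENSMUSG00000021614, chromosome 13, 89655312 to 89742509, minus strand) encodes versican, a large matrix proteoglycan that classical monocytes transcribe strongly. Here it was close to the detection limit in dura, with 1.56, 2.76 and 0.721 CPM in P4, 0.762, 0.317 and 0.653 in P5, and 0.252, 0.936 and 1.01 in P6, from 3 to 44 reads per library. No pair of marks passed the test, with differences of -1.51 ± 0.77, 0.35 ± 0.79 and -1.17 ± 0.76 (adjusted p = 0.322, 0.826 and 0.274) for P5 against P4, P6 against P5 and P6 against P4.

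Diaphragm libraries 1 and 7 had 24 and 17.6 CPM of Vcan, libraries 2 and 8 had 2.51 and 4.21, and libraries 3, 6 and 9 had 3.78, 3.87 and 0.229. The 2 high libraries are those with the most fibroblast marker RNA, whose part was not tested. Dura was lower than diaphragm (-3.00 ± 0.70, adjusted p = 0.00435) with overlap through libraries 2 and 9. Without libraries 1 and 7 the difference was -1.55 (adjusted p = 0.0631), without library 1 alone -2.41 (adjusted p = 0.0133) and without the P4 libraries -3.60 (adjusted p = 0.00866). The call was also lost with voom (adjusted p = 0.182) and with dural libraries summed per number (adjusted p = 0.15).

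Among 7 matrix partners of versican, 3 were tested within dura. Cd44, the hyaluronan receptor of leukocytes, rose in both steps, from 16.1 to 23.4 CPM in P4 through 51.2 to 57.5 in P5 to 186 to 224 in P6 (3.36 ± 0.14 between P6 and P4, adjusted p = 1.04e-08). Adamts1, a protease that cleaves versican, fell between P4 and P6 (-1.91 ± 0.25, adjusted p = 0.000115), as did Adamts4 (-1.79 ± 0.55, adjusted p = 0.0247).

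Treml4 (ENSMUSG00000051682, chromosome 17, 48264295 to 48275360, plus strand) encodes a receptor found on nonclassical monocytes and on some tissue macrophages. It had 1.13, 3.76 and 1.11 CPM in the P4 libraries, 5.85, 5.63 and 4.2 in P5, and 6.04, 9.2 and 10.4 in P6. The marks did not overlap, although 1P5 and 1P6 were close. P6 was higher than P4 by 2.09 ± 0.47 (adjusted p = 0.00434), or by 2.93 without 3P4. The steps did not pass on their own (1.37 ± 0.46, adjusted p = 0.109 for P5 against P4; 0.72 ± 0.44, adjusted p = 0.318 for P6 against P5), but the first passed without 3P4 (2.22, adjusted p = 0.00974), with no filter on low counts (adjusted p = 0.0185) and with DESeq2 (adjusted p = 0.0354).

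In diaphragm Treml4 was highest in libraries 2 and 8, at 142 and 125 CPM, followed by 32.2 and 59.7 in 1 and 7 and 24.5, 17.4 and 28.4 in 3, 6 and 9. This order differs from that of the other 8 genes, none of which had its 2 highest diaphragm values in libraries 2 and 8. All 7 libraries were above the dural maximum of 10.4 CPM, and dura was 11.7-fold lower (-3.55 ± 0.53, adjusted p = 0.000131). Dura had less RNA of 6 of 10 further nonclassical monocyte genes and more of none (15.3% and 11.2% of all tested genes). Their median difference was -1.18, against -0.01 over all genes tested. Among the 6 was Eno3, with 8.59 to 19.6 CPM in diaphragm and 5.49 to 10.4 in dura. The part of muscle RNA in its difference was not tested. Within diaphragm these 10 genes had no common order. Libraries 2 and 8 were the highest for the adhesion integrin chain Itgal (537 and 488 CPM) and for Adgre4 (383 and 379 CPM). They were also the highest for Pou2f2 (146 and 135 CPM) and Cd300e (69.4 and 52.6 CPM). The same libraries were the lowest for Spn (18.3 and 18.8 CPM), Ace (3.71 and 7.04) and Eno3 (13.4 and 8.59). Among 5 TREM relatives 4 were tested between tissues: Trem1 (-3.38 ± 0.50, adjusted p = 0.000116) and Trem3 (-3.00 ± 0.65, adjusted p = 0.00269) were lower in dura, as Treml4 was, and Trem2 higher (0.92 ± 0.16, adjusted p = 0.00042). In dura, 5 of the 10 nonclassical monocyte genes rose from P4 to P6 and none fell (16% and 17.3% of all tested genes). The sialophorin gene Spn rose by 3.50 ± 0.19 (adjusted p = 1.03e-07), from 7.49 to 8.84 CPM in P4 to 80.1 to 102 in P6.

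Nr4a1 (ENSMUSG00000023034, chromosome 15, 101254269 to 101274795, plus strand) encodes the nuclear receptor on which nonclassical monocytes depend, and is also an immediate early gene. It was abundant in every library, with 631, 839 and 747 CPM in P4, 718, 1038 and 911 in P5, and 841, 1180 and 1156 in P6. The range of P5 overlapped those of both other marks. P6 was above P4 by 0.53 ± 0.16 (adjusted p = 0.0234), a call lost with library totals (adjusted p = 0.0693) and without 1P4, 4P4, 3P6 or 4P6 (adjusted p from 0.0541 to 0.093). P5 against P4 (0.27 ± 0.16, adjusted p = 0.407) and P6 against P5 (0.26 ± 0.16, adjusted p = 0.324) did not pass.

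Diaphragm had 897 to 1337 CPM of Nr4a1 with a median of 1105, against 631 to 1180 and a median of 841 in dura, and the difference of -0.33 ± 0.14 did not pass (adjusted p = 0.0937); it passed without 3P6 (adjusted p = 0.0479) and without the P6 libraries (adjusted p = 0.0301). Its relatives differed more: Nr4a2 was lower in dura (-2.30 ± 0.24, adjusted p = 3.94e-06) and Nr4a3 still more (-3.25 ± 0.52, adjusted p = 0.000255), with 591 to 815 CPM of Nr4a3 in diaphragm libraries 3, 6 and 9. Of 8 other immediate early genes, 5 rose from P4 to P6 and none fell (16% and 17.3% of all tested genes), with a median of 0.43. Dusp1 rose by 0.92 ± 0.09 (adjusted p = 8.78e-06). Between tissues, 5 of the 8 had more RNA in dura and none had less (11.2% and 15.3% of all tested genes).

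**Figure D3:**
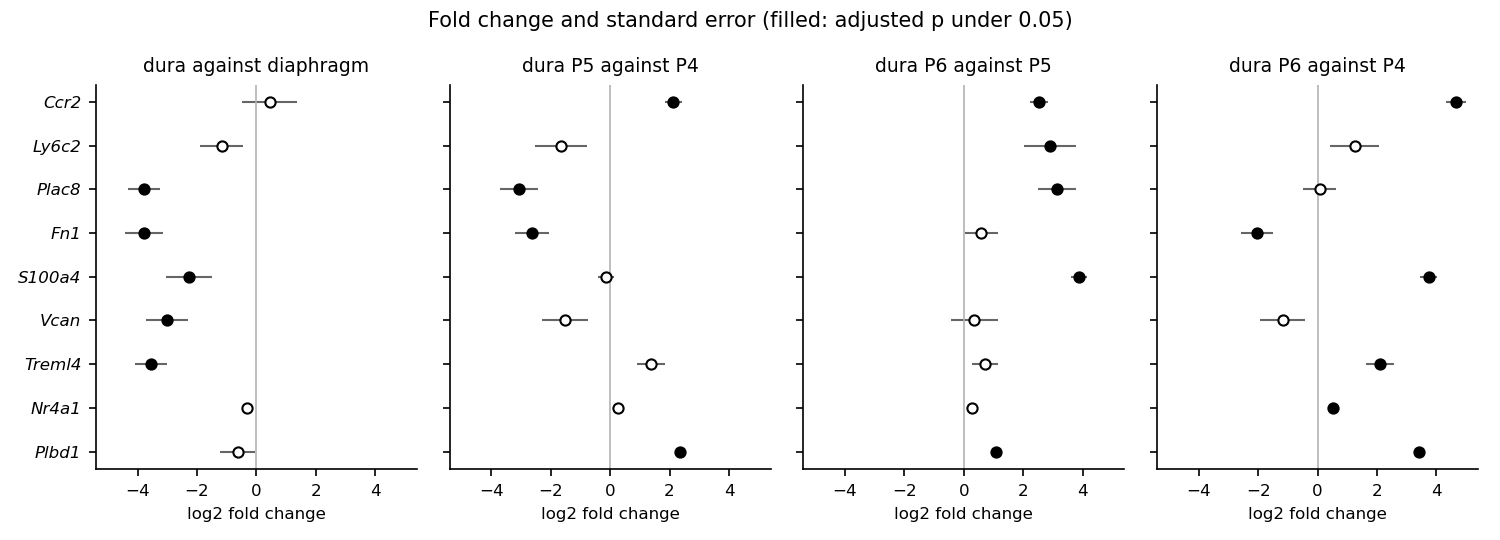
Log2 fold change (horizontal axes) of the 9 genes in the 4 comparisons, first group minus second, with bars for 1 standard error; filled points have an adjusted p under 0.05. The bar of Ccr2 in the tissue comparison is the longest (0.93), and those of Plbd1 between marks are the shortest (0.08 to 0.09).

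Counted over the 9 genes, none was higher and 5 were lower in dura than in diaphragm (Plac8, Fn1, S100a4, Vcan and Treml4), where 11.2% of all tested genes were called higher and 15.3% lower. The median difference of the 9 was -2.26, against -0.01 over all genes. Between P5 and P4, 2 were higher (Ccr2 and Plbd1) and 2 lower (Plac8 and Fn1), where 3.09% and 4.26% of genes were called. Between P6 and P5, 5 were higher (Ccr2, Ly6c2, Plac8, S100a4 and Plbd1) and none lower, where 8.38% and 8.98% were called. Between P6 and P4, 5 were higher (Ccr2, S100a4, Treml4, Nr4a1 and Plbd1) and Fn1 was lower, where 16% and 17.3% were called. The medians were -0.14, 1.08 and 1.25 in these 3 comparisons. Since the genes were chosen with earlier results known, these shares are a description. The same shares of all tested genes apply to the counts of every other list in these comparisons.

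Levels can be compared between the genes only per exon length. In dura the medians were 240 CPM per 1000 exon bases for Nr4a1, 147 for Plbd1, 40.6 for Ccr2, 20.8 for S100a4, 4.52 for Plac8, 3.9 for Fn1, 2.82 for Treml4, 0.983 for Ly6c2 and 0.0527 for Vcan. In diaphragm they were 315 for Nr4a1, 278 for Plbd1, 263 for S100a4, 109 for Fn1, 51.2 for Plac8, 19.1 for Ccr2, 16.1 for Treml4, 1.31 for Ly6c2 and 0.267 for Vcan. Nr4a1 and Plbd1 led and Ly6c2 and Vcan came last in both tissues. The place of Ccr2 depended on the mark: S100a4 (20.8) and Fn1 (9.8) were ahead of it (7.08) in the P4 medians, and S100a4 (240) was ahead of it (224) in those of P6. These medians hide wide ranges, since Ccr2 per 1000 exon bases ran from 4.92 to 243 in dura.

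The 4 genes listed here as those of CCR2 ligands fell from P5 to P6, where the receptor rose. Whether mouse CCL8 acts through CCR2 was not tested. Ccl8 was at 361, 401 and 301 CPM in P4, 417, 439 and 348 in P5, and 27.7, 23.1 and 18.4 in P6, and was lower in P6 than in P5 (-4.12 ± 0.17, adjusted p = 2.61e-08). Ccl7 had 346 to 398 CPM in P6 against 786 to 872 in P5 (-1.16 ± 0.08, adjusted p = 1.63e-06). Ccl2 (-0.48 ± 0.08, adjusted p = 0.00155) and Ccl12 (-0.54 ± 0.10, adjusted p = 0.00309) were also lower. All 4 listed genes thus fell in this step, where 8.98% of all tested genes were called lower. Between P5 and P4, where Ccr2 rose too, the differences of Ccl2, Ccl7, Ccl8 and Ccl12 were 0.28, 0.31, 0.19 and 0.29, of which Ccl7 passed (adjusted p = 0.0338). Between P6 and P4, Ccl7 and Ccl8 were lower, and Ccl2 and Ccl12 did not pass (adjusted p = 0.0796 and 0.0755). In diaphragm libraries 3, 6 and 9, where Ccr2 was highest, Ccl8 was at 3.41 to 7.23 CPM against 49 to 165 in the other 4. Between tissues Ccl12 was higher in dura (1.41 ± 0.14, adjusted p = 2.79e-06) and Ccl2 lower (-0.48 ± 0.11, adjusted p = 0.00376). The scavenger receptor Ackr1, an endothelial gene, was lower in dura (-3.88 ± 1.12, adjusted p = 0.0164). It reached 43.2 and 28.7 CPM in diaphragm libraries 1 and 7, with 847 and 865 CPM of summed endothelial markers. In libraries 2 and 8 it had 2.74 and 3.06 CPM, with 445 and 499 CPM of those markers. Most of the sum in libraries 2 and 8 was Cdh5 (369 and 387 CPM). Kdr had 6.5 and 21 CPM there, against 160 and 184 in libraries 1 and 7. Pecam1, Cldn5 and Emcn were also lower in libraries 2 and 8 than in 1 and 7.

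**Figure D4:**
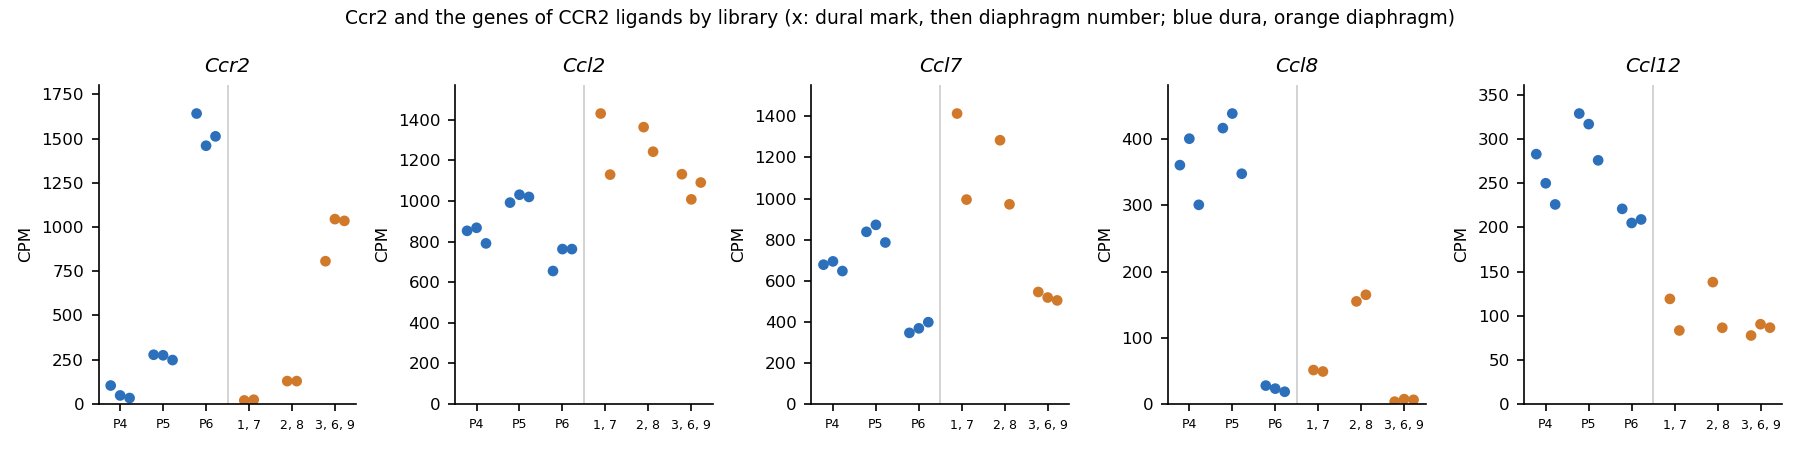
CPM (vertical axes, linear, from 0) of Ccr2 and 4 genes listed as those of CCR2 ligands in each library, dural libraries in blue by mark and diaphragm libraries in orange by number. Ccl8 drops to 18.4 to 27.7 CPM in the P6 libraries, in which Ccr2 is at 1460 to 1642 CPM.

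Of the 6 chemokine receptors listed beside Ccr2, 4 rose and 2 fell from P4 to P6 (16% and 17.3% of all tested genes). Ccrl2, an atypical receptor that binds chemerin, rose by 1.63 ± 0.12 (adjusted p = 1.28e-06), while Ccr1 fell to 57.5 to 69.9 CPM from 113 to 127 (-0.87 ± 0.11, adjusted p = 5.42e-05). The fractalkine receptor gene Cx3cr1, high on nonclassical monocytes, rose by 0.41 ± 0.06 (adjusted p = 0.000431). Ccr7, which guides dendritic cells to lymph nodes, was at most 9.91 CPM in dura but 243, 289 and 209 CPM in diaphragm libraries 3, 6 and 9.

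Other genes of classical monocytes did not move as 1 group. Of 14 listed, 4 were higher (Lyz2, Ms4a4c, Clec4e and Itgam) and 2 lower (F13a1 and Mgst1) in P6 than in P4. Their median difference was 0.03, and 16% and 17.3% of all tested genes were called higher and lower. Ms4a4c rose by 1.84 ± 0.15 (adjusted p = 2.77e-06), whereas F13a1, the coagulation factor XIII chain, fell to 641 to 751 CPM from 2483 to 3027 (-1.95 ± 0.11, adjusted p = 1.31e-07). The defining genes Hp and Chil3 were at or below 3.7 CPM in every dural library, the P6 libraries included, as Ly6c2 and Vcan were low there. Compared with diaphragm, dura had less RNA of 8 of the 14 and more of none (15.3% and 11.2% of all tested genes).

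Ccr2 rose together with MHC class II genes and against genes of resident macrophages. All 7 MHC class II genes rose from P4 to P5 and from P5 to P6 (3.09% and 8.38% of all tested genes). H2-Ab1 had 942 to 1103 CPM in P4, 9643 to 10407 in P5 and 14967 to 15948 in P6. All 6 resident macrophage genes fell from P4 to P6 and from P5 to P6 (17.3% and 8.98% of all tested genes). Lyve1 fell to 4.87 to 14.5 CPM in P6 from 249 to 288 in P4 (-4.99 ± 0.35, adjusted p = 6.87e-07). In diaphragm libraries 1 and 7, the lowest for Ccr2, H2-Ab1 was at 318 and 391 CPM and Lyve1 at 1454 and 1547 CPM, and in 3, 6 and 9 H2-Ab1 was at 16875 to 18020 CPM and Lyve1 at 229 to 347 CPM. The transcription factor gene Maf fell from P4 to P6 (-1.06 ± 0.10, adjusted p = 5.54e-06).

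Markers of further cell types changed between P4 and P6 as well. The dendritic cell genes Flt3 and Clec9a had 8.3 to 12.8 and 15 to 18.1 CPM in P6, against 0.314 to 1.77 and 1.05 to 2 in P4, while Zbtb46 was lower in P6 (-1.78 ± 0.35, adjusted p = 0.00183). Of the 6 dendritic cell markers listed, 4 were higher and 2 lower in P6 than in P4 (16% and 17.3% of all tested genes). The whole list summed to 97.8 to 121 CPM in P4 and 87 to 118 in P6. Most of this was Cd209a, with 80.3 to 111 CPM in P4 and 51.3 to 81.8 in P6. In diaphragm libraries 3, 6 and 9 the list summed to 514 to 715 CPM. The 4 osteoclast markers summed to 62.7 to 105 CPM in P4 and 254 to 364 in P6, with Calcr at or below 0.702 CPM in every dural library. The part of such cells in the Ccr2 and S100a4 differences was not tested. In diaphragm libraries 1 and 7, 5 markers of large peritoneal macrophages summed to 347 and 362 CPM against 24.5 to 42.7 in the other 5.

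The genes most like Ccr2 were ranked by the lower of 2 Spearman correlations, over the 9 dural and the 7 diaphragm libraries, among 8498 genes with a mean over 10 CPM. Sla had a correlation of 1.00 in dura and 0.96 in diaphragm, and Actr2, Lrmp and Spcs3 had 0.97 to 0.98 and 0.96. Their own range was narrower: Sla, an adaptor of receptor signalling, ran from 108 to 202 CPM in dura, and Actr2, a subunit of the Arp2/3 complex that nucleates actin, from 543 to 716. The most opposite genes were Gas6, whose order over the dural libraries was the exact reverse (-0.96 in diaphragm), Rcn3 and Epn2. Of the 9 genes, 7 had a mean over 10 CPM, Ccr2 included. Among these, Plbd1 was the most like Ccr2, with 0.87 in dura and 0.86 in diaphragm. It was followed by S100a4 (0.65 and 0.54) and Nr4a1 (0.53 and 0.57). Treml4 ran with Ccr2 in dura (0.93) and not in diaphragm (-0.64). Plac8 had 0.08 and 0.43, and Fn1 had -0.45 and 0.46. The libraries of a mark share its level, so these correlations describe the same steps as the comparisons above and carry no test.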

How the data were processed

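Macrophages were sorted in bulk from perfused mice, and the labels' protocols describe unstranded, single-end reads of 75 nucleotides. The deposited values are whole counts of reads for each Ensembl gene, which the authors made with tools named in the submitters' processing notes as STAR 2.4.0j, featureCounts and DESeq2 1.20.0 on GRCm38. Although its name calls the table normalised, it was read as raw counts because values are whole and column totals differ widely. Without strand, reads of overlapping genes cannot be assigned with certainty.

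The 6 diaphragm columns with an added prefix differed from the column of the same number by little more than sampling noise (chi-square over degrees of freedom 1.008 to 1.169, against at least 10.56 in 108 other pairs) and were summed as repeat runs. The 2 diaphragm columns with 1496 and 2115 counts were left out. The filterByExpr filter on low counts left 13136 genes in the tissue comparison of 16 libraries and 13239 in the fit of the 9 dural libraries with the mark as its factor. Both were tested with edgeR 4.0.16's quasi-likelihood test (R 4.3.3, TMM factors, two-sided, Benjamini-Hochberg over all genes tested, threshold 0.05). The standard error is the log2 fold change divided by the root of the test's F. The script was tested on simulated data. Of 41388 Ensembl IDs, 40254 were matched to a symbol, and coordinates came from GENCODE on the same build.

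The members and all lists were chosen with earlier results of these data known. The 9 members are named in every comparison. From each other list and comparison, the 2 highest and 2 lowest fold changes among called genes could be named; other genes that complete a short count, and marker genes, were named after their values were seen. A few genes within these rules are not reported. Alternatives were RLE factors, library totals alone, no filter, DESeq2 1.42.0, limma-voom (limma 3.58.1), left-out libraries or marks, libraries summed per number, a replicate block, only the 2 marks compared, and 1 run per diaphragm library. Leaving out diaphragm libraries 1 and 7 was chosen after seeing the data.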

Additional observations from a re-analysis of the deposited data

Results flagged for a closer look

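Fn1 in dural library 1P4, at 366 CPM, lay far from the other 8 dural libraries (13.7 to 115 CPM): its gap to the nearest was 0.714 of the whole range. Tests of this kind single out about 1 in 20 uniform groups by chance, and 18 groups were tested. Each group pooled all libraries of a tissue, with the dural marks together, so this rate need not hold here. The same library had the most Ccr2 of the P4 libraries (104 CPM).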

How the results depend on the processing

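Of 36 member comparisons 20 were called, and 13 of these kept direction and call under every alternative run. Over 683 alternative values of the members, 627 kept direction and side of the threshold, 36 lost the call, 12 gained one and 8 turned sign. The tissue comparison called 3472 genes, 1259 with dural libraries summed per number (3 members called) and 2143 without the P5 libraries. P5 against P4 called 973 genes, 1587 with no filter (7 members called) and 544 to 1136 with 1 library left out (2 to 4 members called). P6 against P5 called 2299, and 1480 to 2503 with 1 left out. Ccr2 between tissues was -1.45 without the P6 libraries and -0.02 without diaphragm libraries 1 and 7. S100a4 between P5 and P4 ranged from -0.46 to 0.11 with 1 library left out. Plac8 between P6 and P4 was -0.06 with library totals and -0.33 to 0.91 with 1 left out. The cause of these changes was not tested. Library totals alone shifted the median of all genes by 0.12 between tissues, by -0.13 for P5 against P4 and by -0.14 for P6 against P4. Among called genes, those with the higher level in the first group then made up 61% (main 42.2%), 22.2% (main 42%) and 34.8% (main 48.1%).

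With the dural number as a replicate block, P5 against P4 called 1572 genes. Vcan between tissues, whose call voom alone had lost, had an adjusted p of 0.249 with voom and the number as a random term. Between P5 and P4 the block added Treml4 (adjusted p = 0.0435) and Nr4a1 (0.00787), and between P6 and P5 Nr4a1 (0.00615). Deviations of same-numbered libraries correlated from -0.00482 to 0.171, and 8 of 9 libraries correlated best with their own number, a hint from the data and not the design. Depth limits Ly6c2 and Vcan, which had 0 to 130 and 3 to 44 reads per dural library.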
